A study of Mus musculus with 6 samples.

Results

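The genes described are the molecular chaperones and the unfolded protein response genes of 4T1 cells, a mouse mammary carcinoma line. They are the measured heat shock protein genes (Hspa, Hspb, Hspd, Hspe, Hsph and Hsp90 symbols), the Dnaj, Pdia and Cct genes, and Calr, Canx, Hyou1, Creld2, Manf, Sdf2l1, Herpud1, Edem1, Sel1l, Syvn1 and Xbp1. They were picked by symbol, with earlier results of these data known, which gave 95 of the 19938 genes measured. By the known location of their products 29 were assigned to the endoplasmic reticulum (ER), 46 to the cytosol and nucleus and 8 to mitochondria, and 12 acted elsewhere or could not be placed. Gene expression was measured on 6 Affymetrix arrays, 3 from dishes of 4T1 cells kept for 16 h with 500 nM TKI258 and 3 from dishes kept for the same time with its vehicle DMSO, both in medium with 10% serum. TKI258, or dovitinib, inhibits several receptor tyrosine kinases, among them those for FGF, VEGF and PDGF. The question was which chaperone genes differ after the inhibitor, and in which compartment.

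Chaperones bind unfolded protein and let it fold or pass it on for degradation. In the cytosol HSP70 proteins work with J proteins, which deliver substrates and stimulate ATP hydrolysis, and with nucleotide exchange factors, and the ring-shaped chaperonin CCT folds actin and tubulin. The ER has its own HSP70, HSP90 and J proteins, disulphide isomerases and lectin chaperones, whose genes are induced by the unfolded protein response through the ATF6, IRE1-XBP1 and PERK branches. Mitochondria use the HSP60-HSP10 chaperonin and a matrix HSP70. The heat shock factor HSF1 induces many cytosolic chaperone genes.

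Correlations of the arrays over all genes were 0.9969 to 0.9984 within groups and 0.9884 to 0.9896 between groups. Over all genes 27.0% passed limma's test at an adjusted p below 0.05, 12.6% lower and 14.4% higher after TKI258, and the median log2 change was 0.01. Among the 11215 genes whose mean signal lay above the median of all probe sets (5.01 log2 units) 44.2% passed, 21.2% lower, the rest higher. The 3 TKI258 arrays did not overlap the 3 DMSO arrays in 40.2% of all genes. Of 9 epithelial markers, 8 had a mean above that median, with Krt8 at a mean of 11.80 log2 units after TKI258 and 11.92 after DMSO. Of the 9, Cdh1 rose by 1.09, Krt19 by 0.94, Cldn4 by 0.89 and Cldn3 by 0.24, while Krt18 and Krt7 fell by 0.50 and 0.39. The 9 epithelial markers summed to 77.9 to 78.8 log2 units on the TKI258 arrays and 75.6 to 76.5 on the DMSO arrays. Of 6 macrophage markers 5 lay below the median, with the leukocyte gene Ptprc at 3.68 to 3.84 on the TKI258 arrays and 3.72 to 3.80 on the DMSO arrays. Cd68, above it, averaged 7.52 after TKI258 and 6.70 after DMSO and rose by 0.82 (adjusted p = 0.00206), and the dim Fcer1g fell by 0.33 (adjusted p = 0.00657). The macrophage list summed to 25.2 to 26.2 on the TKI258 arrays and 25.0 to 25.3 on the DMSO arrays, and all 4 endothelial markers lay below it. Of 5 fibroblast markers Dcn and Pdgfra were higher after TKI258, and the list summed to 32.1 to 32.7 on the TKI258 arrays and 28.2 to 28.9 on the DMSO arrays. The part of these markers in the changes of the chaperone genes was not tested, and in such bulk samples a change in the share of a cell type and a change within its cells cannot be told apart.

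Of the 95 genes 33 fell, 11 rose and 51 did not pass, against the background of 12.6% lower and 14.4% higher over all genes (34.7% and 11.6% of the members). Their median log2 change was -0.10. Of the 78 members with a mean above the median of all probe sets 32 fell and 10 rose, which is 41.0% and 12.8%, where 2379 and 2580 of all 11215 such genes fell and rose. The groups did not overlap in 62 of the 95 members, where they did not overlap in 8020 of all 19938 genes. Above the median of all probe sets these counts were 58 of the 78 members and 6786 of the 11215 genes. The largest fall was in Hsph1, the cytosolic HSP110, and the largest rise in the small heat shock protein gene Hspb6. Hsph1 had a fold of 0.454, and the folds of all other members lay between 0.550 and 1.88. The plot of all 95 changes shows the members by compartment and role.

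**Figure D1:**
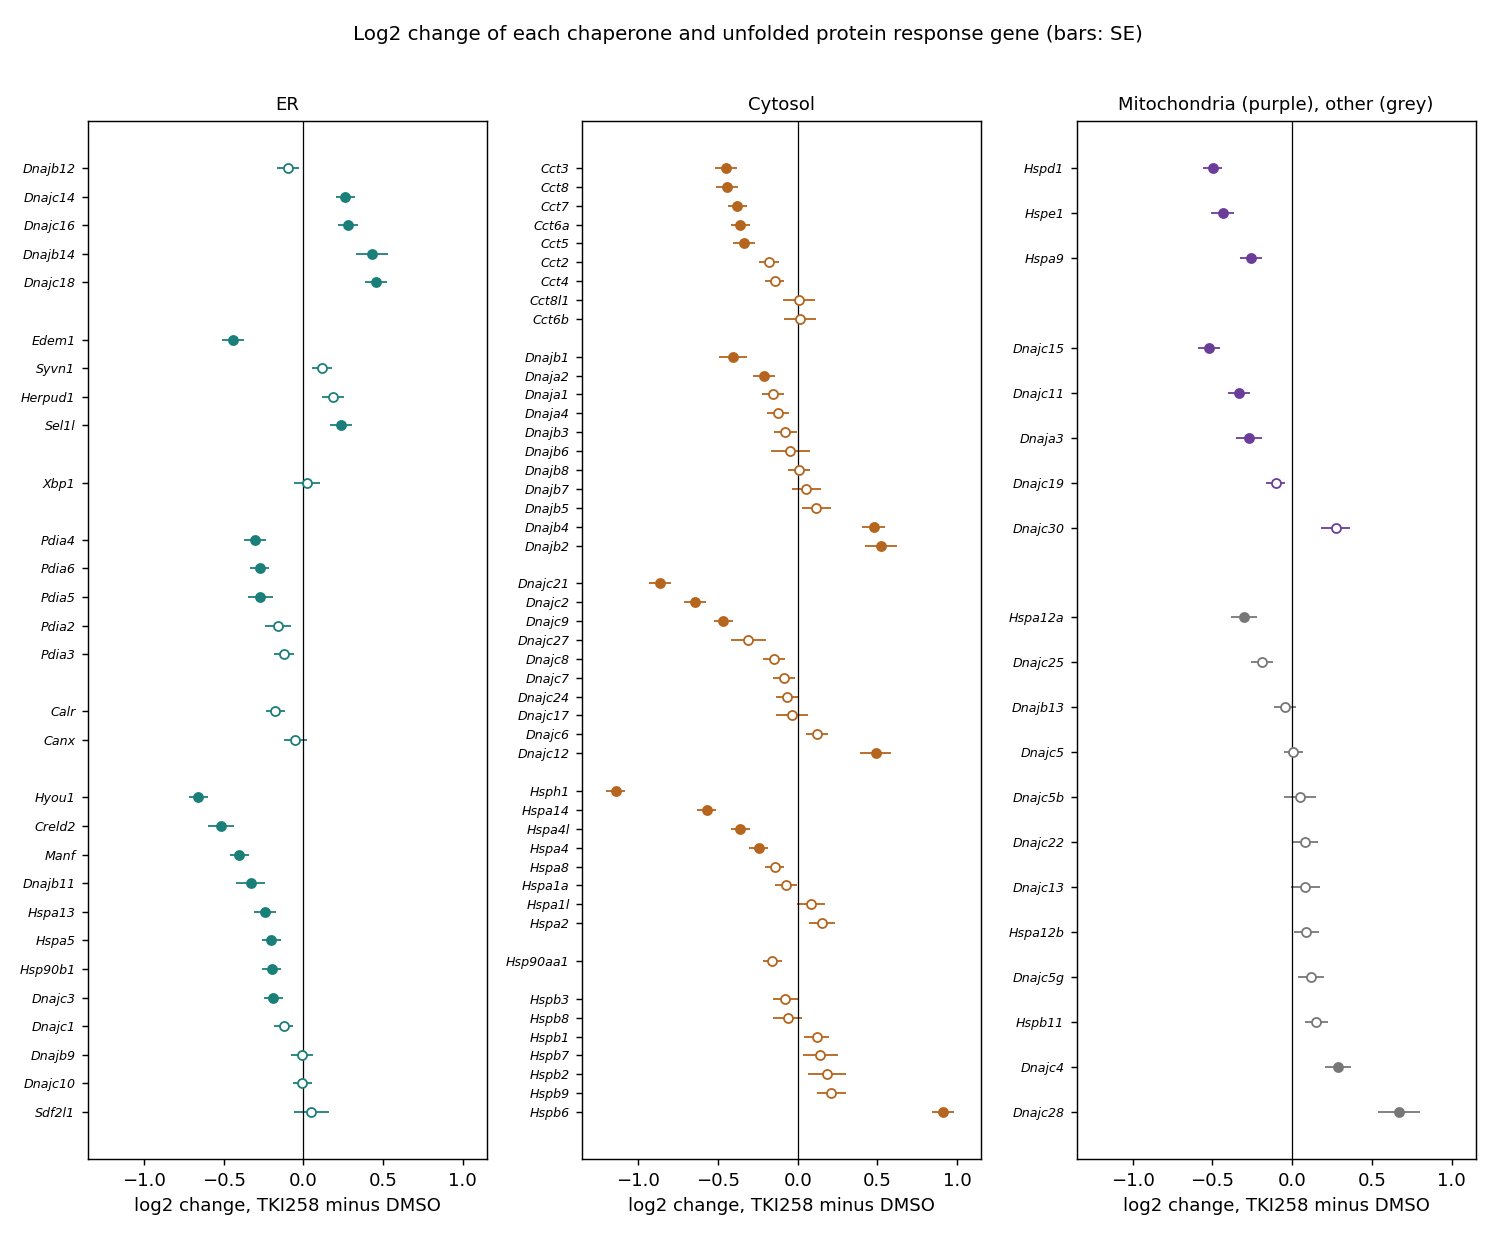
Log2 change (TKI258 minus DMSO) of each of the 95 genes on the horizontal axis, in panels by compartment and blocks by role, with bars of 1 SE from limma (3 arrays per group); filled points passed an adjusted p below 0.05 and open points did not. Most luminal ER, CCT and mitochondrial genes lie left of 0. Of the 5 genes grouped as ER membrane J proteins 4 lie right of it, and Hsph1 (-1.14) and Hspb6 (0.91) mark the ends.

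In the ER, 12 of 29 genes fell, 5 rose and 12 did not pass, with a median log2 change of -0.12. The falls were among the luminal chaperones and disulphide isomerases and in Edem1, and the rises were in 4 J proteins of the ER membrane and in Sel1l. Without Xbp1 and the 5 genes grouped here as membrane J proteins, 12 of 23 fell and 1 rose, with a median of -0.19. The count of falls was sensitive to single arrays: it was 6 without TKI258 replicate 1, TKI258 replicate 2, DMSO replicate 1 or DMSO replicate 3.

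Promoters of several ER genes carry a known control element, shown here because matches stood in ER genes and in no member of the other compartments. The ER stress element (ERSE) consists of CCAAT, any 9 bases and CCACG and is bound by ATF6 with NF-Y, and XBP1 can also bind it. Promoter windows of RefSeq (GRCm38.p6), from 250 bases before to 50 bases after each annotated start, were found for 79 members, 25 of the ER, 40 of the cytosol, 5 of mitochondria and 9 others. The ERSE letters, searched on both strands, stood in the windows of 8 of the 25 ER genes and of 0 of the 40 cytosolic and 0 of the 5 mitochondrial genes, and in 0.119% of all 32851 windows (39). The related ERSE-II, which is ATTGG, any base and CCACG, stood in 2 more ER genes, Herpud1 and Dnajb11, in 0 others and in 0.0365% of all windows (12). The 8 ERSE matches, with the fixed letters in capitals and each read on the gene's strand, were as follows.
Hspa5, chr2:34772025-34772043: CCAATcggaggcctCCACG
Creld2, chr15:88819520-88819538: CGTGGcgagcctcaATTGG
Hsp90b1, chr10:86705638-86705656: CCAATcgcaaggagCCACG
Pdia6, chr12:17266491-17266509: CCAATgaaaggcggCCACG
Calr, chr8:84847075-84847093: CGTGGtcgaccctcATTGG
Canx, chr11:50325800-50325818: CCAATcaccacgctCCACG
Dnajc3, chr14:118937827-118937845: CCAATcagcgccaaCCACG
Syvn1, chr19:6046532-6046550: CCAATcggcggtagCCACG

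In Creld2 and Calr the element runs against the gene's strand, so CGTGG comes first, and Hsp90b1 has 2 elements of opposite strand. The ERSE-II matches were ATTGGgCCACG in Herpud1 (chr8:94386377-94386387) and ATTGGcCCACG in Dnajb11 (chr16:22857852-22857862). The 250 bases before the start are given for Hspa5, the classic ERSE gene, for Creld2, which changed most among ERSE genes, for Hsp90b1 with its pair of elements, and for Herpud1, whose direction differed from most of the others, with the fixed letters of the element in capitals.
Hspa5 (chr2:34771840-34772089, plus strand): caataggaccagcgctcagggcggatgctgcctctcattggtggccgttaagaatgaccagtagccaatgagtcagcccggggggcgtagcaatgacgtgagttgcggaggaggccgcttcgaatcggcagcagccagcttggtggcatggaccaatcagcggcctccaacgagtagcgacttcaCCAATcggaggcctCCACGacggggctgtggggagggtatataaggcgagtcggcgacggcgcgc
Creld2 (chr15:88819396-88819645, plus strand): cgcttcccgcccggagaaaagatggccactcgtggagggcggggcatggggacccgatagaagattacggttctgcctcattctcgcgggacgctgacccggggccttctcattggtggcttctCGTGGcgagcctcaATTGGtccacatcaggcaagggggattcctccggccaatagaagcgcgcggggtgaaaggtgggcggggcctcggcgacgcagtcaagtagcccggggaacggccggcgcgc
Hsp90b1 (chr10:86705445-86705694, minus strand): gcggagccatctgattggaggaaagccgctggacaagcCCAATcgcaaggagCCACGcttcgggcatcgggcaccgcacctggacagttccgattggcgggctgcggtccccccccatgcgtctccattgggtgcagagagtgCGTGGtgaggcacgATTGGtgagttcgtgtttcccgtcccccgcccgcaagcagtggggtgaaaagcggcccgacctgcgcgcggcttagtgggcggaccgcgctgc
Herpud1 (chr8:94386179-94386428, plus strand): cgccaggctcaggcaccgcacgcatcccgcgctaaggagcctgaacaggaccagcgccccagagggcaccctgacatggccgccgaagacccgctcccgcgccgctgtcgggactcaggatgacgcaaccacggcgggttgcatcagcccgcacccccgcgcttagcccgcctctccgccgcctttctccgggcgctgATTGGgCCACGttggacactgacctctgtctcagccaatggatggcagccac

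The ER genes with either element did not move as 1 block. Of the 10, 6 fell (Creld2, Dnajb11, Pdia6, Hspa5, Hsp90b1 and Dnajc3), 0 rose and 4 did not pass (Calr, Canx, Syvn1 and Herpud1), with a median log2 change of -0.19 and a range of -0.52 to 0.19. Of the 15 ER genes with a window and neither element, 3 fell and 4 rose, with a median of -0.01 and a range of -0.44 to 0.43. Among all 11215 genes above the median of all probe sets 2379 fell and 2580 rose. Both counts of the 15 lay near that background, so they mark no pattern of their own. The 6 falls of the 10 lay above it with all arrays used. The 4 of the 15 that rose were Sel1l and Dnajc14, Dnajc16 and Dnajb14 of the membrane J protein group. No gene with an element was in that group, so the split by element overlaps the split by role. The 6 falls became 2 without TKI258 replicate 1, TKI258 replicate 2 or DMSO replicate 3 and 3 without DMSO replicate 1 or 2, and the 3 falls of the others became 1 without DMSO replicate 1. The 4 ER genes with no window here, outside this comparison, were Hyou1, Manf and Hspa13, which fell, and Dnajc18, which rose. A match is a run of letters, and whether a factor was bound there was not measured.

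**Figure D2:**
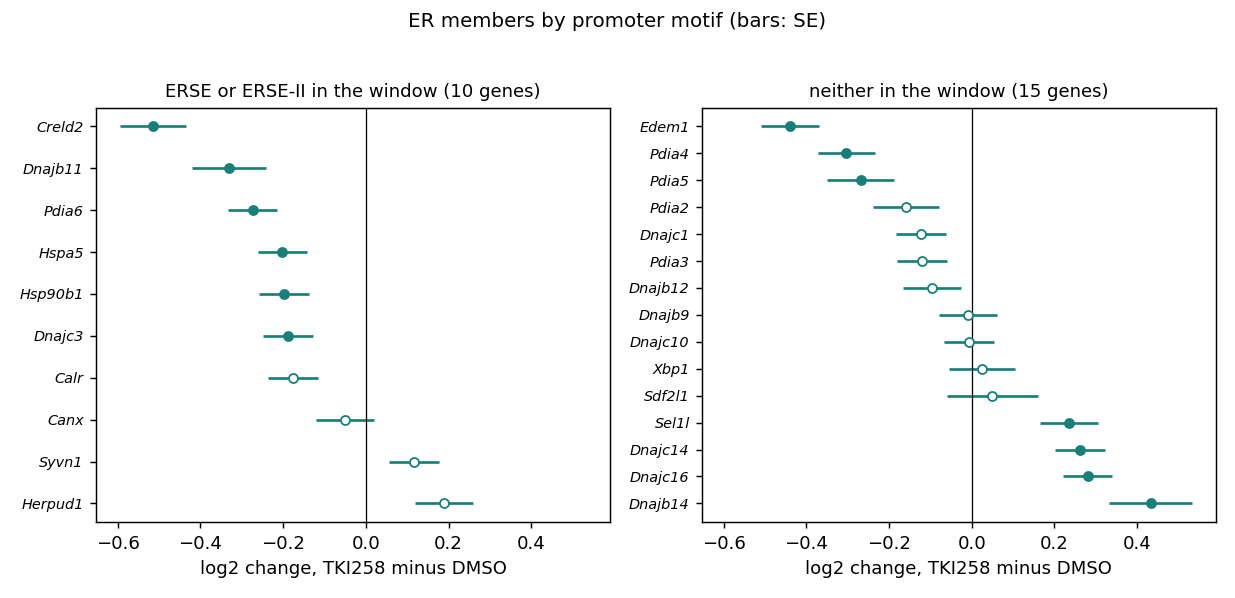
Log2 change (TKI258 minus DMSO) with bars of 1 SE for the 25 ER genes that have a promoter window, split by whether the window holds ERSE or ERSE-II; filled points passed an adjusted p below 0.05. The 10 genes with an element run from Creld2 at -0.52 to Herpud1 at 0.19, and the 15 without run from Edem1 at -0.44 to Dnajb14 at 0.43.

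Among the 12 luminal HSP70, HSP90 and co-chaperone genes 8 fell, 0 rose and 4 did not pass. Hyou1, the ER HSP110 and nucleotide exchange factor of BiP, read 8.90, 8.98 and 8.93 log2 units on the TKI258 arrays, against 9.67, 9.57 and 9.56 on the DMSO arrays. Every TKI258 array lay well below every DMSO array, and the log2 change was -0.66 (SE 0.06, adjusted p = 8.40e-05). Creld2, an ER stress-inducible luminal protein, read 8.05, 8.10 and 8.29 after TKI258 and 8.63, 8.59 and 8.77 after DMSO. Replicate 3 was the highest in both groups, and the groups did not overlap, with a change of -0.52 (SE 0.08, adjusted p = 0.00157). Manf, a secreted ER stress protein that binds BiP, read 9.16, 9.09 and 9.18 after TKI258, against 9.53, 9.52 and 9.58 after DMSO. It fell by 0.40 (SE 0.06, adjusted p = 0.00117).

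BiP itself, encoded by Hspa5, moved little. It read 12.02, 12.01 and 12.03 on the TKI258 arrays and 12.23, 12.22 and 12.22 on the DMSO arrays. The arrays of each group lay close together and the groups did not overlap, and the log2 change was -0.20 (SE 0.06, adjusted p = 0.0299), a fold of 0.869. Hsp90b1, the ER HSP90 known as GRP94, read 12.05, 11.98 and 12.06 after TKI258, against 12.21, 12.25 and 12.21 after DMSO. Its groups also did not overlap, with a change of -0.20 (SE 0.06, adjusted p = 0.0400). The J protein genes Dnajb11 (ERdj3) and Dnajc3 (p58IPK) fell by 0.33 and 0.19, and Hspa13, a microsomal HSP70 relative, by 0.24. Dnajc1 at -0.12, Dnajb9 at -0.01, Dnajc10 at -0.01 and Sdf2l1 at 0.05 did not pass (adjusted p = 0.216 to 0.956).

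Hyou1, Creld2 and Manf passed in every alternative fit. Hspa5 did not pass without TKI258 replicate 1 or 2 or any 1 of the DMSO arrays (adjusted p = 0.0584 to 0.103), and the same held for Hsp90b1 (0.0612 to 0.133) and Dnajc3 (0.0845 to 0.161). The call of Hspa13 was lost without TKI258 replicate 1 or 2 or DMSO replicate 1 or 3 (0.0760 to 0.103), and that of Dnajb11 without TKI258 replicate 1 or 2 or DMSO replicate 3 (0.0508 to 0.0886).

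Of the 5 disulphide isomerase genes, 3 fell, 0 rose and 2 did not pass. Pdia4 (ERp72) changed by -0.30 (SE 0.07, adjusted p = 0.0123), Pdia6 by -0.27 (SE 0.06, adjusted p = 0.00861) and Pdia5 by -0.27 (SE 0.08, adjusted p = 0.0322), while Pdia3 (ERp57) at -0.12 and Pdia2 at -0.16 did not pass. Pdia2, which is mainly pancreatic, read 3.22 to 3.49 after TKI258 and 3.52 to 3.56 after DMSO, below the median of all probe sets. Pdia5 lost its call without TKI258 replicate 1 or 2 or any 1 DMSO array (adjusted p = 0.0543 to 0.117) and Pdia4 without DMSO replicate 1 (0.0528). Pdia4 has a second, dim probe set at -0.07, and with the mean of both its change was -0.19 and did not pass (adjusted p = 0.184). The lectin chaperone genes, whose products hold glycoproteins during folding, did not pass. Calr (calreticulin) read 11.29, 11.37 and 11.30 on the TKI258 arrays and 11.51, 11.51 and 11.48 on the DMSO arrays. These did not overlap, but the change of -0.18 (SE 0.06) had an adjusted p of 0.0621. Calr passed as lower in some alternative fits: without dim genes (0.0209), with a trended robust eBayes (0.00237) and without moderated variance (0.0218). Canx (calnexin) read 12.10, 12.01 and 12.00 after TKI258, against 12.05, 12.16 and 12.05 after DMSO, and these overlapped, with a change of -0.05 (adjusted p = 0.665).

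ER-associated degradation genes went both ways. Edem1, which takes misfolded glycoproteins out of the folding cycle, read 8.67, 8.54 and 8.54 after TKI258, against 9.04, 8.98 and 9.04 after DMSO. It fell by 0.44 (SE 0.07, adjusted p = 0.00101) and passed in every alternative. Sel1l, the adaptor of the HRD1 ubiquitin ligase, read 9.67, 9.69 and 9.56 on the TKI258 arrays and 9.46, 9.43 and 9.33 on the DMSO arrays. The groups did not overlap, and Sel1l rose by 0.24 (SE 0.07, adjusted p = 0.0315). That call was lost without TKI258 replicate 1 or 2 or any 1 DMSO array (0.0597 to 0.117). Syvn1, which encodes HRD1, had a change of 0.12 (adjusted p = 0.203). Herpud1, a membrane component of the same ligase complex, read 9.39, 9.25 and 9.33 after TKI258, against 9.13, 9.07 and 9.19 after DMSO, and did not pass at 0.19 (SE 0.07, adjusted p = 0.0727). So within these genes 1 fell, 1 rose, and Syvn1 and Herpud1 did not pass, although the groups overlapped in none of the 4. Among all 11215 genes above the median of all probe sets, the groups did not overlap in 6786.

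Xbp1, the transcription factor whose mRNA is spliced by IRE1, read 9.49, 9.26 and 9.46 on the TKI258 arrays and 9.41, 9.38 and 9.35 on the DMSO arrays. The groups overlapped, with a change of 0.02 (SE 0.08, adjusted p = 0.874). The probe set gives 1 value for the gene, so spliced and unspliced Xbp1 were not separated.

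Most of the 5 genes grouped here as J proteins of the ER membrane rose. Of them 4 rose, 0 fell and Dnajb12 did not pass (-0.10, adjusted p = 0.344). The group is not complete. Dnajc1, placed with the luminal genes, and Sec63, on the translocon list below, also encode membrane J proteins. Neither passed, both at -0.12 (adjusted p = 0.216 and 0.188). Dnajc18 read 6.63, 6.75 and 6.66 after TKI258, against 6.17, 6.31 and 6.20 after DMSO, and rose by 0.46 (SE 0.07, adjusted p = 0.00107). Dnajb14, a membrane J protein with its J domain on the cytosolic side, read 7.10, 7.49 and 7.14 after TKI258 and 6.80, 6.81 and 6.83 after DMSO. Its TKI258 replicate 2 stood above the other two, and the change was 0.43 (SE 0.10, adjusted p = 0.0110). Dnajc16 rose by 0.28 (SE 0.06, adjusted p = 0.00894) and Dnajc14 by 0.26 (SE 0.06, adjusted p = 0.00943). These 4 calls held without each single array. Dnajb14 also shares 2 probe sets with Pin4, and those read lower after TKI258, at -0.25 and -0.24 (adjusted p = 0.0924 and 0.116), so its direction was not the same in all probe sets that name it.

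**Figure D3:**
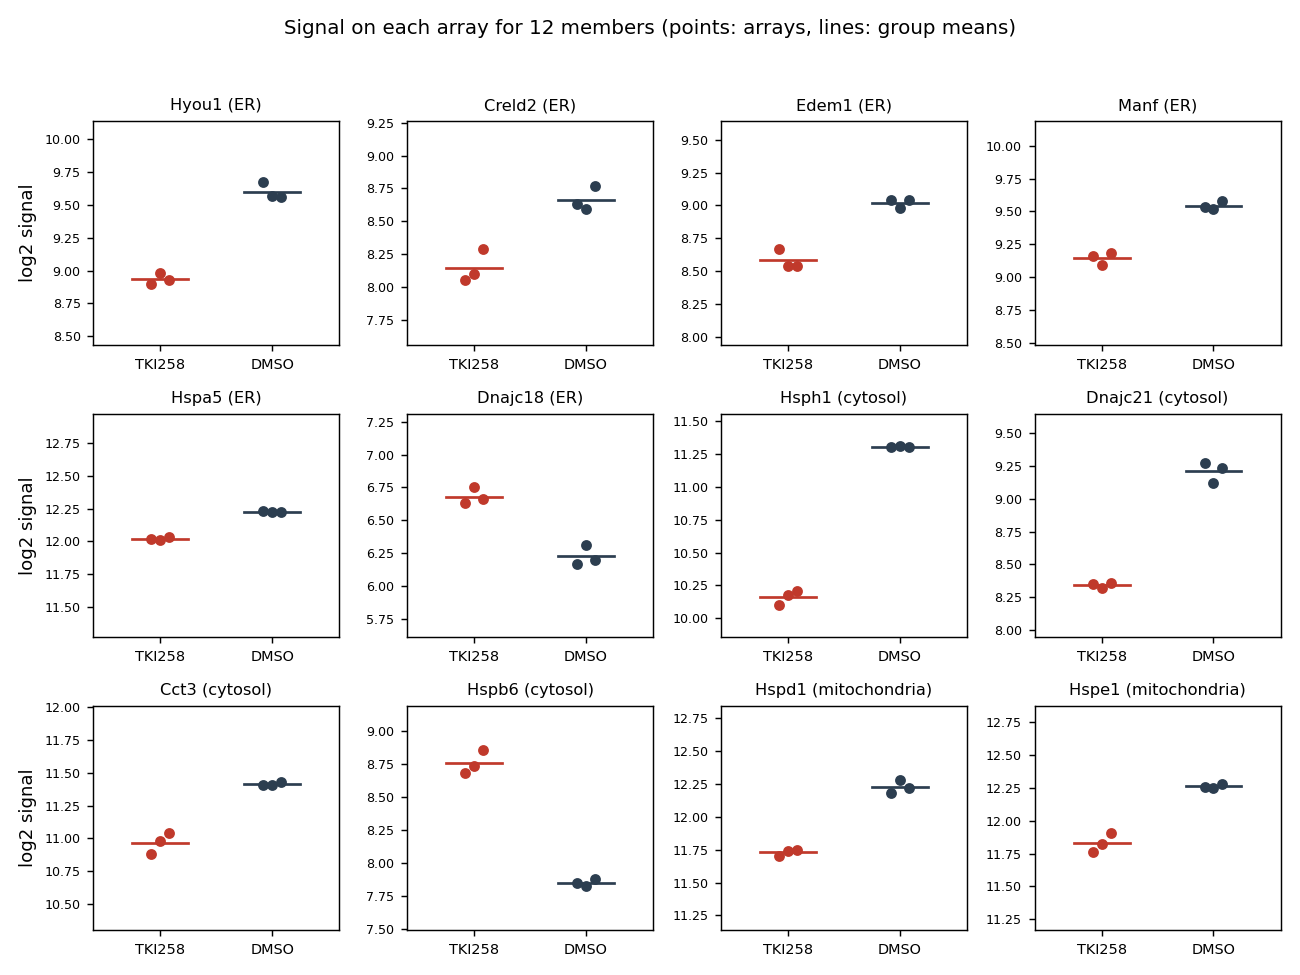
Log2 signal on each array for 12 of the genes, TKI258 left and DMSO right, with a line at each group mean (3 arrays each); every panel spans the same log2 range, so distances can be compared. Hsph1 shows the widest gap, Hspa5 a small gap with little spread, and Dnajc18 and Hspb6 are higher after TKI258.

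In the cytosol and nucleus 14 of 46 genes fell, 4 rose and 28 did not pass, with a median log2 change of -0.08. Of the 46, 36 had a mean above the median of all probe sets, and all of the 18 genes that passed were among them. The falls lay in HSP70-type genes, in CCT and in J proteins, and the rises were Hspb6, Dnajb2, Dnajc12 and Dnajb4.

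Hsph1, or HSP105, a nucleotide exchange factor of HSP70 and an HSF1 target, changed most of all members. It read 10.10, 10.18 and 10.21 on the TKI258 arrays, against 11.30, 11.31 and 11.30 on the DMSO arrays. The DMSO arrays were nearly equal and far above every TKI258 array, and the change was -1.14 (SE 0.06, adjusted p = 3.76e-06). Its relatives Hspa4l and Hspa4, also exchange factors, fell by 0.36 (SE 0.06, adjusted p = 0.00198) and 0.24 (SE 0.06, adjusted p = 0.0147). The call of Hspa4 was lost without DMSO replicate 2 (adjusted p = 0.0693). Hspa14, a ribosome-associated HSP70, read 8.95, 9.01 and 9.05 after TKI258 and 9.59, 9.55 and 9.58 after DMSO, a change of -0.57 (SE 0.06, adjusted p = 0.000148). So 4 of the 8 HSP70-type genes fell and 0 rose.

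The single-gene probe sets of Hspa8, Hspa1a, Hspa2 and Hspa1l did not pass. Hspa8, the constitutive HSC70, read 12.87, 12.88 and 12.87 on the TKI258 arrays and 13.02, 13.03 and 13.00 on the DMSO arrays. The groups did not overlap, but the change of -0.14 (SE 0.06) had an adjusted p of 0.108. Among the alternative fits Hspa8 passed as lower without dim genes (0.0385), with a trended robust eBayes (0.000764) and without moderated variance (0.0037). Hspa1a, the inducible HSP70, read 6.39, 6.26 and 6.28 after TKI258, against 6.43, 6.36 and 6.37 after DMSO, a change of -0.07 (adjusted p = 0.483). A probe set that names both Hspa1a and its near-identical copy Hspa1b read 9.25, 9.47 and 9.55 after TKI258 and 9.77, 9.81 and 9.90 after DMSO. It fell by 0.40 when probe sets were tested singly (SE 0.09, adjusted p = 0.00875), where 25.6% of 23410 probe sets passed and 12.3% were lower, so the shared and the single probe set of inducible HSP70 gave different calls. Hspa2 and Hspa1l, which are known from testis, were at 0.15 and 0.08 and did not pass.

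**Figure D4:**
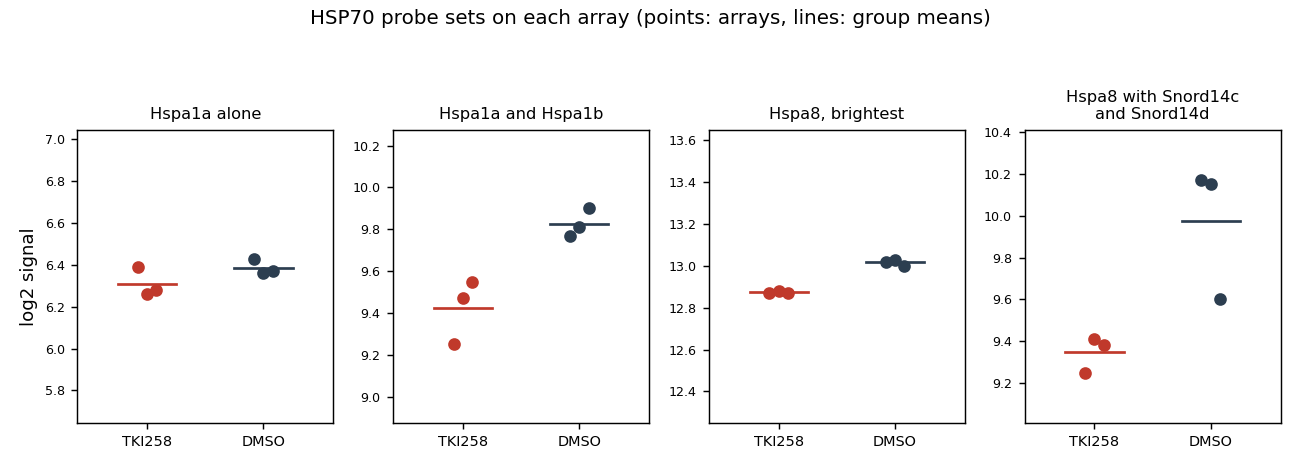
Log2 signal on each array for 4 probe sets of cytosolic HSP70 genes, TKI258 left and DMSO right, with group means as lines (3 arrays each, the same log2 span in every panel). The probe set of Hspa1a alone differs little (-0.07), the one shared by Hspa1a and Hspa1b is lower after TKI258 (-0.40), the brightest of Hspa8 changed by -0.14, and the one shared by Hspa8 and 2 snoRNA genes by -0.63.

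Hsp90aa1, the inducible cytosolic HSP90, read 12.60, 12.63 and 12.63 on the TKI258 arrays and 12.78, 12.79 and 12.77 on the DMSO arrays. The groups did not overlap, yet the change of -0.16 (SE 0.06) had an adjusted p of 0.0768. Hsp90aa1 passed as lower without dim genes (0.0255), with a trended robust eBayes (0.000499) and without moderated variance (0.00374). Its 2 other probe sets, tested singly, had -0.16 (adjusted p = 0.0749) and -0.20 (adjusted p = 0.0294). Hsp90aa1, Hspa8, Hspd1 and Hspe1 have processed pseudogenes in the genome, so their probe sets may read more than 1 locus. Hsp90ab1 was not analysed here.

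Of 7 small heat shock protein genes Hspb6 alone rose and 0 fell. Hspb6, or HSP20, known from muscle, read 8.68, 8.74 and 8.86 after TKI258, against 7.85, 7.82 and 7.88 after DMSO. Every TKI258 array was well above every DMSO array, and it rose by 0.91 (SE 0.07, adjusted p = 2.15e-05). Hspb1, the HSP27 gene, read 4.97, 4.82 and 4.93 after TKI258 and 4.85, 4.66 and 4.85 after DMSO, below the median of all probe sets, and did not pass at 0.12 (adjusted p = 0.330). Its second probe set was also dim, at means of 4.80 after TKI258 and 4.66 after DMSO. Hspb8, whose product acts with Bag3 in selective autophagy, was at -0.06 (adjusted p = 0.690), and Hspb2, Hspb3, Hspb7 and Hspb9 lay between -0.08 and 0.21. Hspb9 passed as higher without TKI258 replicate 3 (adjusted p = 0.0346).

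Most CCT subunit genes fell. Of the 9 Cct genes measured 5 fell, 0 rose and 4 did not pass. Without the testis-linked Cct6b and the Cct8 relative Cct8l1, both dim, all 7 others were lower with groups that did not overlap. The groups did not overlap, in either direction, in 6786 of all 11215 genes above the median of all probe sets. Cct3 read 10.88, 10.98 and 11.04 on the TKI258 arrays and 11.41, 11.41 and 11.43 on the DMSO arrays, a change of -0.45 (SE 0.07, adjusted p = 0.000841). Cct8 had -0.45, Cct7 -0.38, Cct6a -0.36 and Cct5 -0.34, with adjusted p from 0.00101 to 0.00439. In each of these 5 genes the TKI258 array nearest to DMSO was replicate 3. Cct2 at -0.18 (adjusted p = 0.0556) and Cct4 at -0.14 (adjusted p = 0.143) did not pass. With a trended robust eBayes both passed as lower (0.000722 and 0.0191). Cct2 also passed without dim genes (0.0181), with weighted arrays (0.0402) and without moderated variance (0.0158). The remaining ring subunit, encoded by Tcp1 and outside the symbol rule, fell by 0.26 (SE 0.06, adjusted p = 0.0112); it was added after its value was seen.

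Cytosolic and nuclear J proteins went both ways. In the DNAJC class Dnajc21, a ribosome assembly factor, read 8.35, 8.32 and 8.36 after TKI258, against 9.27, 9.12 and 9.23 after DMSO, and fell by 0.86 (SE 0.07, adjusted p = 2.03e-05). Dnajc2, or zuotin, a ribosome-bound J protein that pairs with Hspa14, read 7.29, 7.43 and 7.40 after TKI258 and 8.03, 8.02 and 7.99 after DMSO, and fell by 0.64 (SE 0.07, adjusted p = 0.000106). Both members of this ribosome-associated pair therefore fell, Hspa14 by 0.57 and Dnajc2 by 0.64. Dnajc9, a histone chaperone with a J domain, fell by 0.47 (SE 0.06, adjusted p = 0.000366), and Dnajc12 rose by 0.49 (SE 0.10, adjusted p = 0.00484). The other 6 DNAJC genes of this compartment did not pass, among them Dnajc27 at -0.31 (adjusted p = 0.0583), which passed without TKI258 replicate 3 (adjusted p = 0.0187), as did Dnajc8 (-0.15, adjusted p = 0.178, and 0.0423 without it).

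Among DNAJA and DNAJB genes 2 fell, 2 rose and 7 did not pass. Dnajb1, or HSP40, the J protein partner of inducible HSP70 and an HSF1 target, read 8.15, 8.16 and 8.43 on the TKI258 arrays and 8.56, 8.65 and 8.75 on the DMSO arrays. Replicate 3 was the highest in both groups, and Dnajb1 fell by 0.41 (SE 0.09, adjusted p = 0.00880). Dnaja2 fell by 0.21 (SE 0.07, adjusted p = 0.0436), a call lost without TKI258 replicate 1 or 2 or any 1 DMSO array (0.0962 to 0.120). Dnajb2, which has a ubiquitin-binding form, read 6.46, 6.57 and 6.87 after TKI258, against 6.15, 6.07 and 6.12 after DMSO, and rose by 0.52 (SE 0.10, adjusted p = 0.00424). Dnajb4 rose by 0.48 (SE 0.07, adjusted p = 0.00104). Dnaja1 at -0.15 and Dnajb6 at -0.05 did not pass. A second probe set of Dnaja1 was at 0.04 and one shared with Mir207 at 0.08, so its sign differed between probe sets. Dnajb6 is read here by a probe set with means of 6.26 after TKI258 and 6.31 after DMSO, while 4 probe sets that name it with Gm4247 had means from 10.43 to 11.03 after TKI258 and 10.44 to 11.01 after DMSO, with changes from -0.01 to 0.02.

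The heat shock element, searched on both strands as GAA, any 2 bases, TTC, any 2 bases and GAA, stood in the windows of 4 members and in 0.603% of all windows (198). These were Hsph1, Dnajb6, Hspd1 and Hspe1, and 0 of the 25 ER genes had it. The matches of Hsph1 and Dnajb6, with fixed letters in capitals and read on the gene's strand, were as follows.
Hsph1, chr5:149636288-149636300: TTCtgGAAagTTC
Dnajb6, chr5:29735852-29735864: GAAtcTTCcgGAA

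In Hsph1 the match lay after the start and in Dnajb6 before it. Hspd1 and Hspe1, which encode HSP60 and HSP10, are neighbours read in opposite directions, and 1 stretch between them holds 2 overlapping matches (chr1:55088059-55088071 and chr1:55088064-55088076) that count for both genes. The 250 bases before the Hspe1 start are given with these letters in capitals.
Hspe1 (chr1:55087898-55088147, plus strand): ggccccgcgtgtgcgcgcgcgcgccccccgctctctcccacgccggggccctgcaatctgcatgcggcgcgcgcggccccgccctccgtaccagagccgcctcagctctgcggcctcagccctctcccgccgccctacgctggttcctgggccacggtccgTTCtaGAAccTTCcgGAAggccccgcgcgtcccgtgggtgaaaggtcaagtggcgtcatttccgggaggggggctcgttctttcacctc

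Of the 4 genes Hsph1, Hspd1 and Hspe1 fell, by 1.14, 0.50 and 0.44, and Dnajb6 did not pass. Since Hspd1 and Hspe1 share 1 stretch, they are not separate cases, and for Hspd1 it lay in 1 of 2 windows. No match in a window says only that these letters are not there, and Dnajb1, for one, has none. Only the 79 members with a window were searched. Hsp90aa1, Hspa8, Hspa9, Cct4, Dnajc2 and Dnajc11 were among those without one.

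Among the 8 genes assigned to mitochondria 6 fell, 0 rose and 2 did not pass, with a median log2 change of -0.30. This count and the mitochondrial mean below rest on the assignment. It left Dnajc28 and Dnajc4, both higher, among the members acting elsewhere or not placed. Hspd1 read 11.70, 11.74 and 11.75 on the TKI258 arrays and 12.18, 12.28 and 12.22 on the DMSO arrays, a change of -0.50 (SE 0.06, adjusted p = 0.000338). Hspe1 read 11.76, 11.82 and 11.91 after TKI258, against 12.26, 12.25 and 12.28 after DMSO, a change of -0.44 (SE 0.07, adjusted p = 0.000972). The second probe set of each fell as well when tested singly, by 0.71 for Hspd1 and 0.45 for Hspe1 (adjusted p = 0.000550 and 0.00129), so both probe sets of each chaperonin gene fell. Hspa9, the matrix HSP70 mortalin, read 11.38, 11.40 and 11.52 after TKI258 and 11.66, 11.69 and 11.72 after DMSO, a change of -0.26 (SE 0.07, adjusted p = 0.0168).

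The mitochondrial J proteins followed in 3 of 5 cases. Dnajc15, an inner membrane J protein of the import motor, read 7.75, 7.70 and 7.84 after TKI258, against 8.32, 8.21 and 8.32 after DMSO, and fell by 0.52 (SE 0.07, adjusted p = 0.000463). Dnajc11, which associates with the cristae-organising MICOS complex, read 8.72, 8.85 and 8.86 after TKI258 and 9.15, 9.11 and 9.18 after DMSO, and fell by 0.34 (SE 0.07, adjusted p = 0.00476). Dnaja3, or TID1, the J protein partner of mortalin, read 7.70, 7.83 and 7.80 after TKI258, against 8.06, 7.91 and 8.15 after DMSO, and fell by 0.27 (SE 0.08, adjusted p = 0.0325). Dnajc19 at -0.10 (adjusted p = 0.282) and Dnajc30 at 0.27 (SE 0.09, adjusted p = 0.0524) did not pass, and Dnajc30 was the only member of this compartment on the positive side. The call of Dnaja3 was lost without TKI258 replicate 1 or 3 or DMSO replicate 1 or 3 (0.0566 to 0.121), and that of Hspa9 without TKI258 replicate 1 or 2 or DMSO replicate 2 or 3 (0.0506 to 0.0625). Dnajc30 passed as higher without TKI258 replicate 2 (0.0185) or DMSO replicate 3 (0.0394).

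Set side by side on each array, the mitochondrial genes had the lowest means relative to DMSO on every TKI258 array. The mean over the mitochondrial genes, given relative to its DMSO mean, was -0.302, -0.290 and -0.213 log2 units on the TKI258 arrays, against -0.002, -0.035 and 0.036 on the DMSO arrays. For the cytosolic genes it was -0.152, -0.126 and -0.058 after TKI258 and 0.012, -0.023 and 0.011 after DMSO. For the ER genes it was -0.107, -0.100 and -0.074 after TKI258 and -0.002, -0.008 and 0.010 after DMSO. In all 3 compartments every TKI258 array lay below every DMSO array, and TKI258 replicate 3 lay nearest to DMSO. The cytosolic group holds dim genes: 36 of its 46 had a mean above the median of all probe sets, against all 8 mitochondrial genes. The median log2 change of these was -0.15 and -0.30, and that of the 7 brighter CCT genes was -0.36. On the lists outside the symbol rule the order was the other way, with medians of -0.21 for other cytosolic and -0.15 for other mitochondrial genes.

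The ER minus cytosol difference changed by 0.018 log2 units between the groups (SD 0.031 over the TKI258 arrays and 0.014 over the DMSO arrays, n = 3 each), within the spread between arrays. It was 0.068 with dim genes left out, and -0.065 (SD 0.029 and 0.009) without the membrane J proteins and Xbp1, both beyond that spread, so neither its size nor its sign was settled. The ER minus mitochondria difference changed by 0.175 (SD 0.031 and 0.027), more than the spread between arrays, and cytosol minus mitochondria by 0.156 (SD 0.007 and 0.021). These are means over genes chosen with results known and have no test. Without the membrane J proteins and Xbp1 the ER mean changed by -0.177 (SD 0.021 over the TKI258 arrays and 0.013 over the DMSO arrays).

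**Figure D5:**
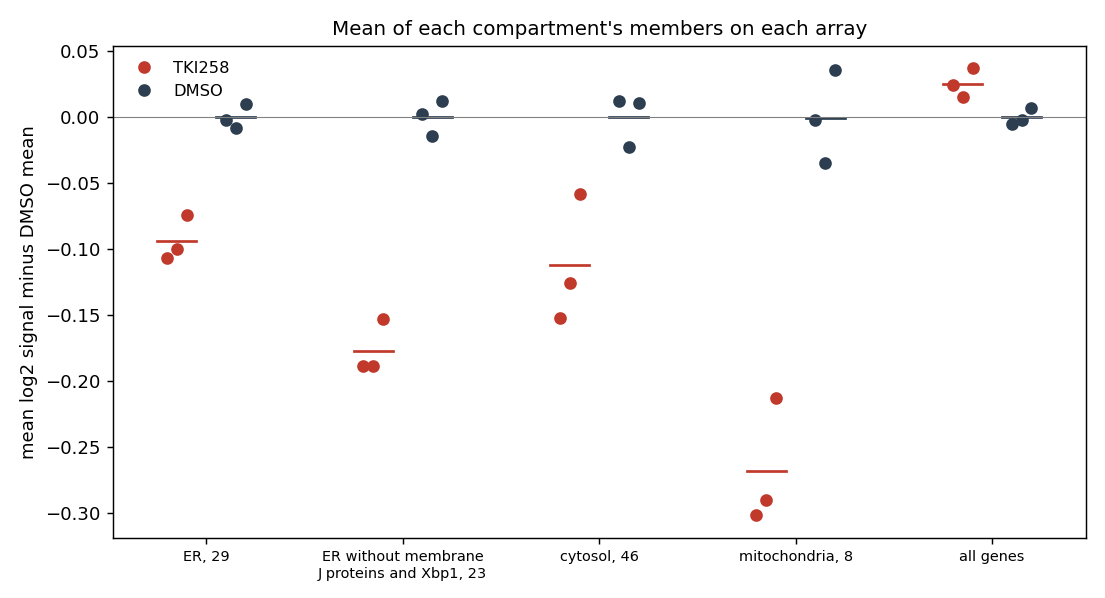
Mean log2 signal over the genes of each compartment on each array, minus the mean of the DMSO arrays, with TKI258 left of DMSO and group means as lines (3 arrays each). The TKI258 arrays lie between -0.302 and -0.213 for mitochondria and between -0.107 and -0.074 for the ER, while the mean of all genes changed by 0.025.

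The 12 members acting elsewhere or not placed had 1 fall, 2 rises and 9 that did not pass, with a median of 0.08. Dnajc28 rose by 0.67 (SE 0.13, adjusted p = 0.00371) from a mean below the median of all probe sets, at 4.81 ± 0.22 after TKI258 and 4.14 ± 0.20 after DMSO (SD, n = 3 each). Dnajc4 rose by 0.29 (adjusted p = 0.0300) and the dim Hspa12a fell by 0.30 (adjusted p = 0.0215). The call of Dnajc4 was lost without TKI258 replicate 1 or 3 or DMSO replicate 1 or 3 (0.0531 to 0.116), and that of Hspa12a without TKI258 replicate 2 or 3 or DMSO replicate 2 or 3 (0.0581 to 0.0879). The endosomal Dnajc13 and the vesicle protein gene Dnajc5, or cysteine string protein, were at 0.08 and 0.01.

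Genes of the same pathways outside the symbol rule were read from lists drawn up from textbook knowledge. Of 9 sensor and PERK arm genes 2 fell, 2 rose and 5 did not pass. All 9 had a mean above the median of all probe sets. Of all 11215 such genes 2379 fell and 2580 rose, so both counts of this list lay near the background. Atf6, the membrane-bound factor that activates ERSE promoters after cleavage, averaged 8.68 ± 0.07 log2 units after TKI258 and 9.28 ± 0.02 after DMSO (SD, n = 3 each), and fell by 0.60 (SE 0.06, adjusted p = 0.000150). Its relative Atf6b fell by 0.40 (adjusted p = 0.00728), while Eif2ak3, which encodes PERK, rose by 0.27 (adjusted p = 0.0166) and Trib3 by 0.38 (adjusted p = 0.0283). The call of Eif2ak3 was lost without DMSO replicate 1 or 3 (0.0785 and 0.0547) and that of Trib3 without DMSO replicate 1 or 2 (0.0895 and 0.0899). Ern1, which encodes IRE1, at -0.18 (adjusted p = 0.137), Atf4 at -0.12, Ppp1r15a at -0.06 and Mbtps1 at 0.13 did not pass. Ddit3, or CHOP, at 0.39 (adjusted p = 0.0570) passed as higher without TKI258 replicate 1 (0.00423).

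Of 18 translocon and signal cleavage genes 4 fell, 1 rose and 13 did not pass. The falls lay near the share of 21.2% lower among all genes above the median. The signal peptidase genes Sec11c and Spcs3 fell by 1.11 (SE 0.07, adjusted p = 9.44e-06) and 0.48 (adjusted p = 0.000446), Ssr1 by 0.28 and Sec61a1 by 0.20. Without TKI258 replicate 3 the number of falls was 7. Sec62 rose by 0.19 (adjusted p = 0.0444), a call lost without any 1 of the arrays (0.0514 to 0.137), and the call of Sec61a1 was lost without each array except TKI258 replicate 3 (0.0620 to 0.111). Of 27 other ER folding genes 11 fell and 2 rose. The glucosidase gene Mogs fell by 0.57, the disulphide donor gene Ero1a by 0.45, and Calu and Ppib by 0.41 and 0.40 (adjusted p = 0.000508 to 0.00116), while Sdf2 and Sil1 rose by 0.43 and 0.31. Of 19 other degradation genes 1 fell, Derl2 by 0.24, and 3 rose, Edem2 by 0.40, Os9 by 0.36 and Ubxn4 by 0.22. The call of Derl2 was lost without TKI258 replicate 1 or any 1 DMSO array (0.0571 to 0.106), and that of Ubxn4 without each array except TKI258 replicate 2 (0.0612 to 0.0961).

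Of 32 other cytosolic folding genes 13 fell, 3 rose and 16 did not pass, with a median of -0.21. The prefoldin gene Pfdn4 fell by 0.77, the HSP90-binding cyclophilin gene Ppid by 0.74 and the HSP70 co-chaperone gene Bag4 by 0.65 (adjusted p = 7.01e-05 to 0.000137). Cryab, the small heat shock protein alpha B-crystallin, averaged 7.19 ± 0.22 after TKI258 and 5.41 ± 0.08 after DMSO (SD, n = 3 each) and rose by 1.78 (SE 0.11, adjusted p = 6.28e-06). Bag6 and Pfdn5 rose by 0.28 each, the call of Pfdn5 being lost without each array except TKI258 replicate 1 (0.0652 to 0.152). Of 17 other mitochondrial folding and proteolysis genes 5 fell, namely Htra2 by 0.58, Afg3l2 by 0.42, Clpp by 0.37, Phb2 by 0.36 and Grpel1 by 0.31. Hscb and Oma1 rose by 0.46 and 0.34, and the median of the 17 genes was -0.15. The call of Grpel1 was lost without TKI258 replicate 1 or 2 or DMSO replicate 1 or 3 (0.0625 to 0.100).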

How the data were processed

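RNA of 3 separate dishes per group was read on Affymetrix arrays, per the labels' design text, so p-values measure the spread between these dishes. The authors' deposited table holds 35557 probe sets on what was taken, from its range and near-equal quartiles, as a log2 scale; no source used here states it. RMA, affy and limma appear without a role, per the submitters' processing notes. If RMA was applied, small signals have compressed changes and a change common to every gene cannot be seen. GEO's platform annotation gave 1 symbol to 21789 probe sets, and the brightest over all arrays stood for its gene (9 members had more than 1). TKI258 minus DMSO was fitted in limma 3.58.1 (R 4.3.3; lmFit and eBayes, no covariate), two-sided, with Benjamini-Hochberg adjustment over 19938 genes, a threshold of 0.05 and no filter. The fit was tested on simulated data. Members, compartments and lists came from symbols and textbook knowledge and were chosen with earlier results of these data known. Values per array are given for up to 6 called members per compartment with the largest change and for a fixed set of well-known chaperone genes. Outside that rule they are also given for Sel1l, Cct3 and a flagged probe set that names Hspa8. From each further list up to 4 called genes with the smallest adjusted p are named, and members of counts of 5 or fewer, chosen after their values were seen. Alternatives comprised a replicate block, leaving out each array, a second quantile normalization, centring on medians, dropping dim genes, averaging probe sets, a trended robust eBayes, weighted arrays, a threshold of 0.01, a test without moderated variance and narrower ER and cytosolic groups. The number of arrays limits the precision. Protein sequences were not used here.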

Additional observations from a re-analysis of the deposited data

Results flagged for a closer look

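Probe sets that name more than 1 gene were outside the gene-level comparison, and 10 of them name a chaperone member. Of these 3 passed when probe sets were tested singly in limma, all lower after TKI258, where 25.6% of 23410 probe sets passed. The probe set naming Hspa1a and Hspa1b had a log2 change of -0.40 (adjusted p = 0.00875), with adjusted p from 0.00690 to 0.0377 when each array was left out. A pair of probe sets naming Hspa8 with the snoRNA genes Snord14c and Snord14d, which are encoded within Hspa8, had log2 changes of -0.63 each (adjusted p = 0.0120). The first of them read 9.25, 9.41 and 9.38 log2 units on the TKI258 arrays, against 10.17, 10.15 and 9.60 on the DMSO arrays, so DMSO replicate 3 stood nearer to the TKI258 arrays. Without DMSO replicate 3 its change was -0.81 and without DMSO replicate 1 it was -0.53. These were singled out because they carry a difference in data that the gene-level comparison did not use. With 3 arrays per group, no test for a single outlying array was run.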

How the results depend on the processing

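No called member changed direction. Of 44 members that passed, 25 passed in all 15 alternatives, 30 passed without each single array, and 13 others passed only in an alternative. Of those 13, Calr, Cct2, Cct4, Dnajc8, Dnajc25, Dnajc27, Hsp90aa1, Hspa8 and Pdia3 passed as lower. Dnajc30, Herpud1, Hspb9 and Syvn1 passed as higher. ER falls numbered 12, with 6 to 12 when each array was left out and 5 at a threshold of 0.01; ER rises numbered 5, with 4 to 5 without each array, 3 at 0.01 and 1 without the membrane J proteins and Xbp1, since 4 of the 5 are such genes. Cytosolic falls numbered 14, with 12 to 16 without each array and 9 without the CCT subunits; cytosolic rises numbered 4, with 4 to 5 without each array and 2 without moderated variance. Mitochondrial falls numbered 6, with 4 to 5 without each array. Mitochondrial rises numbered 0 and were 1 (Dnajc30) with the replicate block, without dim genes and with trend and robust, and 0 to 1 without each array. The ER minus cytosol difference, 0.018, was 0.068 with dim genes left out, 0.005 to 0.035 without each array, and turned to -0.065 without the membrane J proteins and Xbp1, an alternative chosen after seeing the data. Fewer arrays or fewer genes tested are part of those alternatives; otherwise the cause was not tested. Calls of Hspa5, Hsp90b1, Dnajc3, Dnaja2, Dnaja3 and Hspa12a were lost with the replicate block (adjusted p = 0.0502 to 0.0713), where ER falls numbered 9. Deviations of same-numbered arrays correlated at 0.018, 0.050 and 0.151, and those of unlike-numbered arrays at -0.113 to 0.073. The highest was that of the arrays numbered 3. These values cannot settle whether the numbers pair the dishes, and the block is given here only. Over all genes the genes called lower and higher were 2519 and 2866, with 2622 and 2497 after median centring, which turned the balance of directions and moved the median of all genes to -0.01. Dim probe sets limit what can be read for 17 members with means below the median of all probe sets.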
